A study of Rattus norvegicus with 10 samples.

Results

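The messenger RNA of rat hippocampal neuron cultures at 120 min after chemical long-term potentiation (cLTP), a bath treatment that strengthens synapses across a whole dish, was compared with that of cultures taken 5 or 10 min after the same treatment. The comparison used 6 of the 10 libraries of the series: 2 from 120 min against 4 early ones (2 from 5 min and 2 from 10 min, pooled as 1 group). All 6 came from cells that had received the cLTP solution, and no mock-treated library entered the comparison. It sets separate late and early samples of stimulated cultures side by side. An effect of cLTP apart from elapsed time or handling was not tested. The 2 libraries of 60 min are given as a description of the time between. All groups were Wistar hippocampal cultures at day 15 in vitro whose glial growth had been suppressed on day 4 with fluorodeoxyuridine and uridine, and all RNA was depleted of ribosomal RNA and passed through 3 rounds of poly(A) selection. Each time has 2 samples that the labels call biological repeats. The p-values measure the spread between these samples as far as the labels go. In the pooled early group that spread includes the difference between 5 and 10 min.

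Strengthening of synapses that lasts depends on new transcription and protein synthesis. The first genes to respond encode transcription factors, which then act on later genes, and signalling also switches some genes off. The level of a messenger falls when its decay outpaces its synthesis, so short-lived messengers, among them many for transcription factors and signalling inhibitors, can lose abundance sooner than the stable messengers of receptors, channels and synaptic scaffolds.

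Values are CPM, that is, reads relative to the total of their library, after a further scaling between libraries by trimmed means (TMM). Read totals of the 6 libraries, worked back from the whole-read steps of the CPM, were 32961534 to 54040657. The first principal component held 77.8% of their variance and separated the 120 min libraries, at 25.1 and 25.7, from the early ones, at -16.3 to -10.9. The second, with 12.5%, set replicate 2 of 5 min apart at 13.57, with the other 5 libraries between -9.73 and 1.23. The SD over genes of the log2 difference between the repeats was 0.113 at 120 min, against 0.164 at 5 min and 0.124 at 10 min. For the difference between the means of 10 and 5 min the SD was 0.146. All 18 neuron markers looked for were measured, with a summed level of 5073 to 5276 CPM at 120 min and 5557 to 6393 CPM in the early libraries. Markers of other cells were present too: 18 of 18 for astrocytes, 18 of 18 for microglia, 15 of 16 for the oligodendrocyte lineage, 10 of 16 for vascular cells and fibroblasts and 18 of 18 for cycling cells. In bulk RNA from cultures with markers of several cell types, fewer cells of a type and less RNA per cell cannot be told apart.

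Of the 11615 genes tested, 1736 (14.9%) were lower at 120 min than in the early libraries and 2219 (19.1%) were higher, at an adjusted p under 0.05. The falls were small beside the rises. The median fall was 1.18-fold (log2 fold change -0.24) and the median rise 1.3-fold (log2 0.38), against a median log2 fold change of -0.01 over all genes tested. At least 2-fold falls were seen in 5 genes (0.043%) and at least 1.5-fold falls in 55 (0.474%), whereas 244 (2.1%) rose at least 2-fold and 610 (5.25%) at least 1.5-fold. Both 120 min libraries lay below all 4 early ones in 3180 of the 11615 genes, the 1736 that fell among them, so such a gap says little beyond the call. The largest falls and rises described next were chosen from genes with this gap. The genes that fell held 131700 CPM at 120 min and 153600 CPM early in sum, and those that rose held 230100 CPM at 120 min and 167100 CPM early. Fewer genes were called without either 120 min library in turn, and the number of falls shrank more than that of rises. Such a fit has a single late sample and detects fewer small changes. A call lost there therefore does not by itself point to the library left out. Higher genes made up 56.1% of the calls. They made up 37.9% (2932 lower and 1790 higher) with library totals, that is, with the CPM as deposited and no TMM factors.

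**Figure D1:**
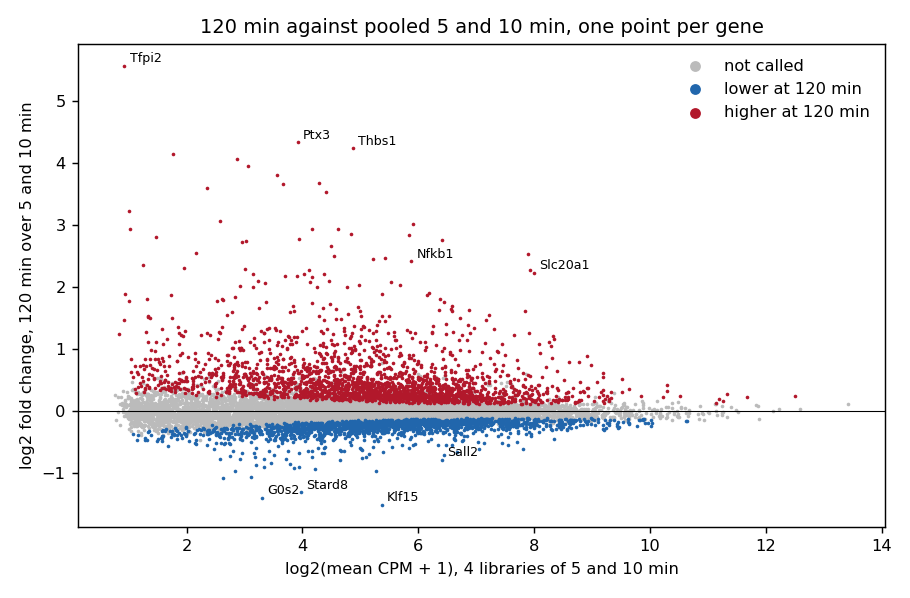
One point per gene, with the log2 fold change of 120 min over the pooled 5 and 10 min libraries (y) against the early level as log2(mean CPM + 1) (x); blue points were called lower, red points higher and grey points not called. Most of the 1736 blue points lie close to the zero line, and Klf15 at -1.52 is the lowest, while the red points reach 5.56 at Tfpi2.

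The genes that fell at least 2-fold included Klf15, G0s2, Stard8 and Pou3f4. Klf15, a Kruppel-like transcription factor known as a glucocorticoid-responsive regulator of fuel use in liver and muscle, fell most. It had 13.2 and 13.7 CPM at 120 min, against 41.1 and 39.1 CPM at 5 min and 39.3 and 41.7 CPM at 10 min. The late libraries were close to each other and far below every early one (log2 fold change -1.52, SE 0.053, limma adjusted p = 7.6e-08). The gene lies on the plus strand at chr4:122365093-122377688 of rn6, the build of the files. Its promoter, shown since it belongs to the largest fall, is given from RefSeq on assembly GRCr8 at chr4:124522765-124523064, plus strand, from 250 bases before to 50 after the start site. The capitals mark an E-box, CACGTG, which begins 101 bases before the start.
Klf15 promoter: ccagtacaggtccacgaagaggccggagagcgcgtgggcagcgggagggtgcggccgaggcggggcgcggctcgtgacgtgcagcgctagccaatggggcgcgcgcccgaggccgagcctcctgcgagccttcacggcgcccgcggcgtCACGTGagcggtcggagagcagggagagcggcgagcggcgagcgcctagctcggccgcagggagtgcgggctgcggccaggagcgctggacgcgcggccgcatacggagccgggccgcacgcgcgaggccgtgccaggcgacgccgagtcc

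G0s2, an inhibitor of adipose triglyceride lipase, had 3.03 and 2.41 CPM at 120 min, against 7.73 and 9.89 CPM at 5 min and 8.99 and 8.84 CPM at 10 min (log2 fold change -1.41, SE 0.11, adjusted p = 1.4e-05). Stard8, a GTPase-activating protein with a lipid-binding START domain, had 5.12 and 5.50 CPM at 120 min, against 14.8 and 13.9 CPM at 5 min and 15.1 and 15.0 CPM at 10 min (log2 fold change -1.31, SE 0.068, adjusted p = 1e-06). Pou3f4, a POU-domain factor, had 3.19 and 3.07 CPM at 120 min, against 8.002 and 7.44 CPM at 5 min and 7.45 and 7.59 CPM at 10 min (log2 fold change -1.06, SE 0.074, adjusted p = 7.4e-06). G0s2, Stard8 and Pou3f4 are low transcripts, for which a fold on the log2(CPM + 1) scale understates the change. The number of genes at least 2-fold lower was accordingly 10 with a pseudocount of 0.1 and 1 with a pseudocount of 5, and 13 in limma-voom.

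**Figure D2:**
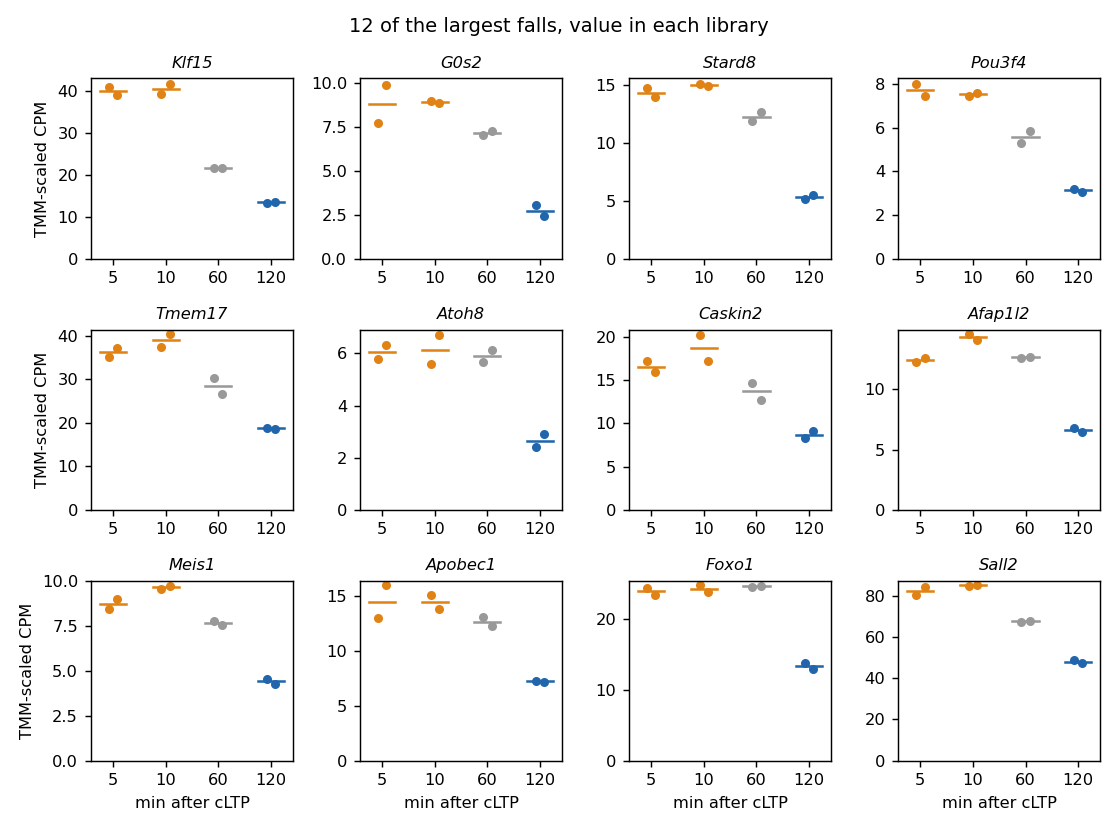
TMM-scaled CPM of 12 of the genes with the largest falls in each library at 5, 10, 60 and 120 min after cLTP; points are libraries, bars are means of 2, orange marks the early group, grey 60 min and blue 120 min, and the time axis is not to scale. Both blue points lie below all orange points in every panel, which was a condition of the choice; Klf15 had 13.2 and 13.7 CPM at 120 min.

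Transcription factors and nuclear regulators among the 30 largest falls included Klf15, Pou3f4, Atoh8, Meis1, Foxo1, Sall2, Mycn and Nfkbiz. Apobec1, a cytidine deaminase that edits RNA, fell by 0.91 on the log2 scale. Meis1, a homeobox cofactor of HOX proteins, had 4.56 and 4.25 CPM at 120 min, against 8.42 and 8.98 CPM at 5 min and 9.55 and 9.73 CPM at 10 min (log2 fold change -0.91). Foxo1, a forkhead factor that insulin signalling keeps out of the nucleus, had 13.9 and 13.0 CPM at 120 min, against 24.5 and 23.4 CPM at 5 min and 24.9 and 23.8 CPM at 10 min (log2 fold change -0.80, SE 0.058, adjusted p = 9.9e-06). Sall2, a zinc-finger factor of the spalt family, had 48.6 and 47.1 CPM at 120 min, against 80.5 and 84.1 CPM at 5 min and 84.7 and 85.3 CPM at 10 min (log2 fold change -0.79, SE 0.044, adjusted p = 1.7e-06). The basic helix-loop-helix (bHLH) factor Atoh8 fell by 0.96 on the log2 scale and Mycn, of the MYC family, by 0.72.

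Adaptor and cytoskeletal genes formed another part of these 30. Caskin2, a scaffold of the CASK-interacting family, had 8.28 and 9.14 CPM at 120 min, against 17.2 and 15.9 CPM at 5 min and 20.3 and 17.2 CPM at 10 min (log2 fold change -0.94). Afap1l2, an actin-filament-associated adaptor, fell by 0.92 and Lmod1, a leiomodin that nucleates actin, by 0.75 on the log2 scale. Ston1, a stonin of clathrin-mediated endocytosis, had 17.3 and 19.4 CPM at 120 min, against 29.9 and 31.5 CPM at 5 min and 32.1 and 33.5 CPM at 10 min (log2 fold change -0.76). Tmem17, a membrane protein of the ciliary transition zone, was higher in level and had 18.8 and 18.6 CPM at 120 min, against 35.0 and 37.3 CPM at 5 min and 37.5 and 40.3 CPM at 10 min (log2 fold change -0.97, SE 0.062, adjusted p = 4.4e-06). Sncaip, which encodes the alpha-synuclein partner synphilin-1, had 20.4 and 18.6 CPM at 120 min, against 32.5 and 32.3 CPM at 5 min and 32.8 and 35.1 CPM at 10 min (log2 fold change -0.74).

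Receptor and metabolic genes made up most of the remainder. Adora2a, a stimulatory adenosine receptor, had 2.77 and 2.21 CPM at 120 min, against 5.03 and 5.31 CPM at 5 min and 4.69 and 4.75 CPM at 10 min (log2 fold change -0.77). Lpar4, a lysophosphatidic acid receptor, had 20.3 and 21.5 CPM at 120 min, against 33.9 and 33.9 CPM at 5 min and 34.4 and 35.6 CPM at 10 min (log2 fold change -0.70, SE 0.052, adjusted p = 1.3e-05). The orphan receptor Gpr146 fell by 0.77 on the log2 scale. Ddit4, an inhibitor of the growth kinase complex mTORC1, had 9.47 and 10.0 CPM at 120 min, against 17.0 and 17.2 CPM at 5 min and 14.3 and 19.4 CPM at 10 min (log2 fold change -0.74). Chst12, a chondroitin sulfotransferase, fell by 0.72, the cytosolic nucleotidase Nt5c1a by 0.69 and the lysosomal transporter Slc46a3 by 0.78 on the log2 scale. A further 4 of the 30 were Dnajc28 (log2 fold change -0.77), Gareml (-0.86) and the predicted genes RGD1565222 (-0.88) and RGD1560672 (-0.84). All 30 kept their call and direction in each of the 19 alternative settings that gave a value for them.

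The level at 60 min divided these genes. The 60 min values stand beside the same early libraries, so they are a description and were not tested. Among the 55 genes that fell at least 1.5-fold, the median log2 difference of 60 min minus early was -0.19, with a range of -0.87 to 2.40, against 0.00 over all genes tested. Klf15 had 21.6 and 21.6 CPM at 60 min, already below every early library, and Pou3f2 had 11.5 and 13.3 CPM, close to its level at 120 min. Foxo1, by contrast, had 24.6 and 24.8 CPM at 60 min, inside its early range, and Chst12 had 10.7 and 10.6 CPM. Mycn had 6.24 and 5.27 CPM at 60 min, so in Foxo1, Chst12 and Mycn the drop was seen at 120 min and not at 60 min. Sncaip had 33.4 and 30.9 CPM at 60 min, the first inside and the second below its early range of 32.3 to 35.1 CPM.

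In 4 genes, picked for this shape after their values were seen, the level stood above the early one at 60 min and below it at 120 min. Nfkbiz, an atypical member of the IkB family that acts in the nucleus, had 12.4 and 11.2 CPM at 120 min, against 18.6 and 18.4 CPM at 5 min and 20.1 and 21.5 CPM at 10 min (log2 fold change -0.69, SE 0.08, adjusted p = 0.00022). At 60 min it had 100.2 and 115 CPM. Nfkbia, the classical NF-kB inhibitor IkB-alpha, had 96.6 and 86.3 CPM at 120 min, against 123 and 114 CPM at 5 min and 143 and 143 CPM at 10 min (log2 fold change -0.51, SE 0.095, adjusted p = 0.0036). It had 553 and 580.2 CPM at 60 min, and its fall missed the threshold without replicate 2 of 120 min (adjusted p = 0.055). Both IkB family genes thus ended lower than they were at 5 and 10 min, after the highest values of the 4 times at 60 min. Id2, an inhibitor of bHLH factors, had 67.8 and 59.7 CPM at 120 min, against 101.6 and 100.9 CPM at 5 min and 100.1 and 102.5 CPM at 10 min (log2 fold change -0.66). It had 134 and 147 CPM at 60 min.

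The fourth such gene was Ppp1r3c, whose product brings protein phosphatase 1 to glycogen. It had 55.0 and 49.1 CPM at 120 min, against 85.3 and 93.0 CPM at 5 min and 82.8 and 84.0 CPM at 10 min (log2 fold change -0.72, SE 0.063, adjusted p = 3.4e-05), with 143 and 148 CPM at 60 min. Its promoter is shown as that of a gene that crossed its early level in both directions; it lies at chr1:243878478-243878777 of GRCr8 (RefSeq), minus strand, and the capitals mark an E-box that begins 54 bases before the start.
Ppp1r3c promoter: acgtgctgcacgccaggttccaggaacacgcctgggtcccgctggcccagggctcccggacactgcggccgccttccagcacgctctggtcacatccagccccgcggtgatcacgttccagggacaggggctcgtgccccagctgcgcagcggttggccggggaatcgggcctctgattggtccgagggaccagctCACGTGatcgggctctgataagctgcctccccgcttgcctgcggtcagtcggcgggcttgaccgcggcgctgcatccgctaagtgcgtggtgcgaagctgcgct
CACGTG, which reads the same on both strands, stood in 13.3% of the promoters of genes that fell at least 1.5-fold (6 of the 45 with a sequence), in 9.75% of those that rose at least 1.5-fold (47 of 482) and in 9.16% of all (863 of 9418). Among all genes that fell the share was below that of all promoters, at 7.23% (100 of 1384), and among all that rose it was 10.5% (194 of 1844). These shares are descriptions of windows of equal length. The promoters of Nfkbiz, Nfkbia and Id2, the genes of the same shape as Ppp1r3c, held no CACGTG. Those of G0s2 and Stard8 held none either.

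**Figure D3:**
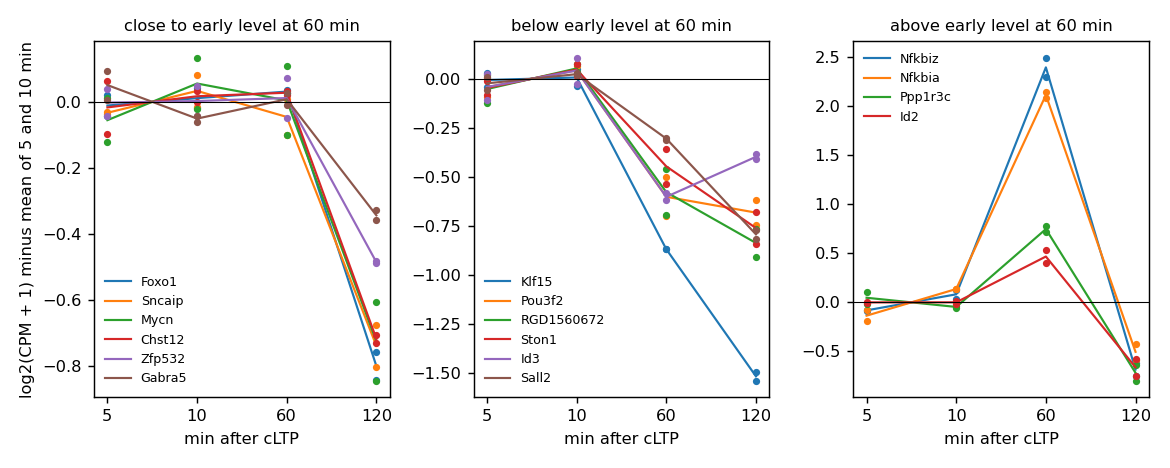
Log2(CPM + 1) of 16 falling genes minus its mean over the 4 early libraries, at 5, 10, 60 and 120 min after cLTP (time axis not to scale, y axes differ); points are libraries, lines join the means, and genes were put in 3 panels by their 60 min values after these were seen. Foxo1 stayed near 0 until 60 min, Klf15 was at -0.87 by then, and Nfkbiz was at 2.40 before all 3 lay below 0 at 120 min.

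Developmental transcription factors fell in many cases. Of 45 measured homeobox, SOX and bHLH factors, 19 (42.2%, beside 14.9% of all genes) fell and 7 (15.6%, beside 19.1%) rose. Their median log2 fold change was -0.15, against -0.01 over all genes. Without either 120 min library in turn 11 fell. The class III POU factors, which act in neural progenitors and neurons, all fell: Pou3f4 (above), Pou3f2, Pou3f3 and Pou3f1, of which the last 2 were picked out after their values were seen. Pou3f2 had 12.2 and 11.1 CPM at 120 min, against 19.3 and 18.0 CPM at 5 min and 19.5 and 20.2 CPM at 10 min (log2 fold change -0.68, SE 0.069, adjusted p = 8.8e-05). Pou3f3 had 41.0 and 42.0 CPM at 120 min, against 62.8 and 54.7 CPM at 5 min and 61.0 and 62.7 CPM at 10 min (log2 fold change -0.53, adjusted p = 0.00024). Pou3f1 had 6.65 and 7.79 CPM at 120 min, against 9.52 and 9.87 CPM at 5 min and 9.44 and 9.86 CPM at 10 min (log2 fold change -0.38, adjusted p = 0.0053). Library totals shift the median gene by -0.05 (log2), so the direction of a fall was fixed in advance in that setting. The fall of Pou3f1 missed the threshold without replicate 1 of 120 min.

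Neurod6, a bHLH factor of excitatory cortical and hippocampal neurons, had 84.4 and 86.7 CPM at 120 min, against 139.5 and 141 CPM at 5 min and 124 and 123 CPM at 10 min (log2 fold change -0.62, SE 0.064, adjusted p = 0.00011). Sox2, a progenitor factor, fell by 0.32, and the forebrain factor Bcl11b by 0.36 on the log2 scale. The members that rose included Sox11, with 11.95 and 12.6 CPM at 120 min against 6.57 and 6.34 CPM at 5 min and 7.04 and 7.17 CPM at 10 min (log2 fold change 0.77), and Emx2 (0.65). Members of this list thus moved in opposite directions.

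The ID genes, inhibitors of bHLH factors and targets of bone morphogenetic protein (BMP) signalling, split. Id2 (above) fell, Id3 had 187 and 184 CPM at 120 min, against 249 and 228 CPM at 5 min and 241 and 264 CPM at 10 min (log2 fold change -0.40), and Id4 fell by 0.32, while Id1 rose by 0.73 on the log2 scale. The wider list of BMP, TGF-beta and ID genes leaned upward, with 16 of 38 higher (42.1%, beside 19.1% of all genes) and 5 lower (13.2%, beside 14.9%; median 0.16). Among the higher ones the transducer Smad1 had 59.8 and 58.1 CPM at 120 min against 35.1 and 35.5 CPM at 5 min and 36.2 and 34.8 CPM at 10 min (log2 fold change 0.72). The BMP antagonist Nog fell by 0.44, a call lost without replicate 1 of 120 min. Of 18 Kruppel-like and SP factors 8 rose (44.4%) and 3 fell (16.7%, near the 14.9% of all genes; median 0.06). Beside Klf15 the falls were those of Klf1 (-0.34) and Klf7 (-0.23). Klf5 had 38.1 and 38.8 CPM at 120 min against 6.99 and 6.80 CPM at 5 min and 7.40 and 7.20 CPM at 10 min (log2 fold change 2.28). Without either 120 min library Klf15 was the 1 of the 3 still called.

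Of 21 measured clock genes 13 rose (61.9%, beside 19.1% of all genes) and 3 fell (14.3%, near the 14.9% of all genes), with a median log2 fold change of 0.21. The PAR bZIP activators Dbp and Tef, which bind D-box sites, both fell. Dbp had 39.7 and 40.3 CPM at 120 min, against 58.0 and 57.7 CPM at 5 min and 56.8 and 63.3 CPM at 10 min (log2 fold change -0.55, SE 0.054, adjusted p = 7.8e-05). Tef had 196 and 185 CPM at 120 min, against 239.7 and 242 CPM at 5 min and 244 and 239 CPM at 10 min (log2 fold change -0.34, adjusted p = 0.00021). Nfil3, a repressor of the same sites, rose by 1.01 on the log2 scale, to 33.3 and 38.9 CPM at 120 min, against 18.3 and 19.9 CPM at 5 min and 15.7 and 16.0 CPM at 10 min; at 60 min it had 85.0 and 84.8 CPM. Arntl, which encodes the clock activator BMAL1, had 75.2 and 82.7 CPM at 120 min, against 42.3 and 40.6 CPM at 5 min and 41.1 and 40.4 CPM at 10 min (log2 fold change 0.92). Cry1, a repressor of that activator, rose by 0.89. The nuclear receptor gene Rorb fell by 0.29, a call that was lost without either 120 min library.

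Genes of fuel use moved both ways, with 10 of 35 lower and 10 higher (28.6% each, beside 14.9% and 19.1% of all genes) and a median of 0.01 (-0.04 with library totals). Without replicate 1 or 2 of 120 min 7 or 4 were lower, and 6 were higher in either case. Beside Foxo1 and Ddit4, Sesn1, a sestrin that restrains mTORC1, fell by 0.45, Foxo3 by 0.29 and the mitochondrial coactivator Ppargc1a by 0.29 on the log2 scale. Among the members that rose, Hk2, a hexokinase, had 137 and 134 CPM at 120 min, against 17.6 and 18.7 CPM at 5 min and 14.9 and 16.6 CPM at 10 min (log2 fold change 2.93). Pdp1, the phosphatase that activates pyruvate dehydrogenase, had 211 and 207 CPM at 120 min, against 51.6 and 49.2 CPM at 5 min and 47.8 and 52.3 CPM at 10 min (log2 fold change 2.04), and the glucose transporter Slc2a1 rose by 0.56. The call of Foxo3 was lost without replicate 2 of 120 min, as was that of Ppargc1a.

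Of 23 genes for GABA synthesis, transport and receptors 13 fell (56.5%, beside 14.9% of all genes) and 0 rose in limma (19.1% of all genes), the other 10 not being called, and the median was -0.20. Gabra5, an extrasynaptic GABA-A receptor subunit abundant in hippocampus, had 209.5 and 214 CPM at 120 min, against 270.2 and 287 CPM at 5 min and 261 and 258 CPM at 10 min (log2 fold change -0.34, SE 0.049, adjusted p = 0.0008). Gabbr2, a GABA-B receptor subunit, fell by 0.28, its partner Gabbr1 by 0.20 and the synthetic enzyme Gad2 by 0.23 on the log2 scale. In the fits without either 120 min library in turn 4 members were called lower, and Gad2 and Gabbr1 were not among them.

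Of 39 genes of glutamate receptors, auxiliary subunits and related trafficking proteins 13 fell (33.3%, beside 14.9% of all genes). In this list 1 rose (2.56%, beside 19.1%), and the median was -0.14. Gria4, an AMPA receptor subunit, had 83.2 and 83.8 CPM at 120 min, against 105.7 and 106.9 CPM at 5 min and 98.1 and 94.99 CPM at 10 min (log2 fold change -0.28), and the metabotropic receptor Grm5 fell by 0.25 on the log2 scale. Smaller falls were those of the subunits Grin1 (-0.16) and Gria2 (-0.14). The member that rose, by 0.22, was the trafficking protein gene Cnih4 and not a receptor subunit. Without either 120 min library in turn 1 member was lower and 0 higher in limma, and with library totals Cnih4 was not called. Of 38 postsynaptic scaffolds and kinases 17 fell (44.7%, beside 14.9%) and 5 rose (13.2%, beside 19.1%; median -0.16), and 5 or 4 fell without replicate 1 or 2 of 120 min. Lrrc4b, an adhesion molecule of excitatory synapses, had 189 and 189 CPM at 120 min, against 226 and 234 CPM at 5 min and 232 and 234 CPM at 10 min (log2 fold change -0.29, adjusted p = 0.00037), and the scaffold Dlg3 fell by 0.26. The related genes Lrrc4 and Dlg1 went the other way, by 0.64 and 0.43.

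On the presynaptic side 11 of 40 release genes fell (27.5%, beside 14.9% of all genes) and 2 rose (5.0%, beside 19.1%, median -0.14). The number lower was 3 or 8 without replicate 1 or 2 of 120 min, 17 without replicate 2 of 10 min, 19 against the 5 min libraries alone and 22 with library totals. Rab3a, a vesicle GTPase, had 289 and 289 CPM at 120 min, against 353 and 376 CPM at 5 min and 346 and 341 CPM at 10 min (log2 fold change -0.29, SE 0.047, adjusted p = 0.0015). The vesicle proteins Sv2b and Syp fell by 0.30 and 0.24, whereas the synaptotagmin Syt4 rose by 0.31 on the log2 scale, a call lost without replicate 2 of 120 min. Potassium and HCN channels held 23 lower (31.9%, beside 14.9%) and 6 higher (8.33%, beside 19.1%) genes of 72 (median -0.11), with 9 or 8 lower without replicate 1 or 2 of 120 min. Kcnv1, a silent subunit that modifies voltage-gated channels, had 12.6 and 13.4 CPM at 120 min, against 19.1 and 19.0 CPM at 5 min and 16.9 and 17.6 CPM at 10 min (log2 fold change -0.45), and the glial channel Kcnj10 fell by 0.40. In contrast Kcnk10, a background potassium channel of the TREK group, had 98.1 and 97.1 CPM at 120 min, against 30.6 and 29.0 CPM at 5 min and 32.3 and 28.0 CPM at 10 min (log2 fold change 1.67). Sodium, calcium and TRP channels held 7 lower of 46 (15.2%, beside 14.9%) and 3 higher (6.52%, beside 19.1%, median -0.11). That count of 7 was unstable: it was 3 or 1 without replicate 1 or 2 of 120 min, 14 without replicate 2 of 10 min, 12 against the 5 min libraries alone and 16 with library totals.

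**Figure D4:**
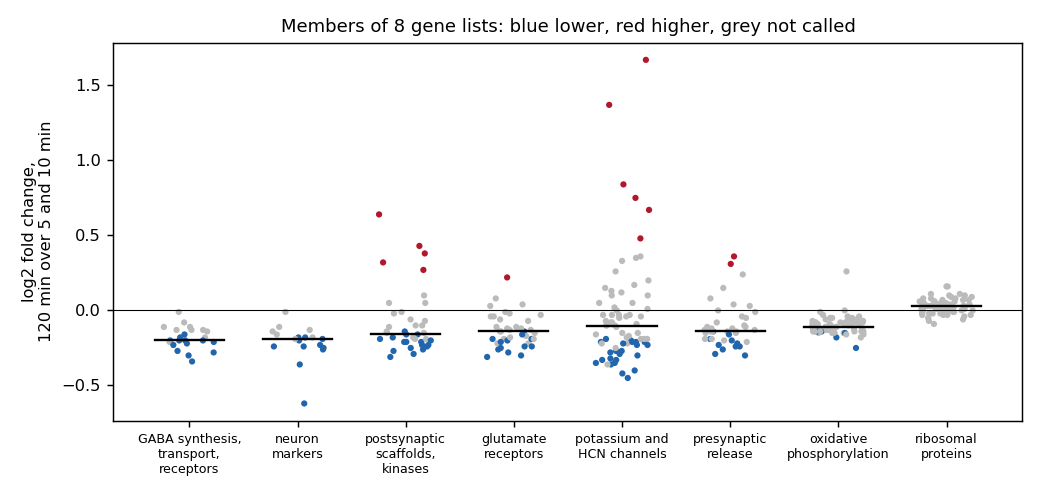
Log2 fold change of 120 min over the pooled 5 and 10 min libraries for each measured member of 8 gene lists; blue points were called lower, red higher and grey not called, and the black bars are list medians. The medians of the first 6 lists lie between -0.20 and -0.11, that of oxidative phosphorylation at -0.11 and that of ribosomal proteins at 0.03.

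Of the 18 neuron markers 11 fell (61.1%, beside 14.9% of all genes), 7 were not called and 0 rose in limma (median -0.19), with 4 or 5 lower without replicate 1 or 2 of 120 min. Snap25, a SNARE protein of vesicle fusion, fell by 0.23, the vesicular glutamate transporter Slc17a7 by 0.24 and the kinase Camk2a by 0.25 on the log2 scale. Of the oligodendrocyte markers 7 of 15 were lower (46.7%, beside 14.9%; median -0.22), with a summed level of 1498 to 1546 CPM at 120 min and 1699 to 1877 CPM early. Microglial markers were lower in 5 of 18 cases (27.8%; median -0.17; 2 or 3 cases without replicate 1 of 5 or of 10 min, and 8 with library totals) and summed to 348 to 357 CPM at 120 min and 375 to 417 CPM early. Astrocyte markers were lower in 2 and higher in 3 of 18 cases (11.1% and 16.7%, both under the shares of all genes; median 0.00), and summed to 30840 to 32540 CPM at 120 min and 29620 to 31320 CPM early. Of 10 vascular and fibroblast markers 2 fell and 3 rose (beside 14.9% and 19.1% of all genes; median 0.10; 2237 to 2395 CPM at 120 min and 2307 to 2700 CPM early). Of 18 markers of cycling cells 2 fell and 1 rose (11.1% and 5.56%; median -0.10; 633 to 668 CPM at 120 min and 515 to 656 CPM early). The 2 lower cycling markers became 6 without replicate 2 of 5 min, against the 10 min libraries alone and with library totals, and 0 without replicate 1 of 5 min. Among the oligodendrocyte markers 3 or 1 were lower without replicate 1 or 2 of 120 min, and among the microglial ones 2 or 0. Snap25 and Slc17a7 lost their call without replicate 1 and Camk2a without replicate 2. The falls of the astrocyte markers left 1 or 0 calls in the same fits, those of the cycling markers 1 or 0 and those of the vascular markers 0 in both. The part of these cell types in the falls of the synaptic lists was not tested.

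G-protein-coupled receptors, measured in 118 cases, held 32 lower (27.1%, beside 14.9% of all genes) and 20 higher genes (16.9%, beside 19.1%; median -0.09), with 11 or 10 lower and 13 higher without replicate 1 or 2 of 120 min. Adra2a, an adrenergic receptor, had 19.3 and 20.7 CPM at 120 min, against 31.8 and 30.3 CPM at 5 min and 30.2 and 33.3 CPM at 10 min (log2 fold change -0.62, SE 0.061, adjusted p = 7.2e-05). Others that fell, named as examples after their values were seen, were the muscarinic receptors Chrm1 (-0.36) and Chrm3 (-0.29) and the serotonin receptor Htr1a (-0.43). The cannabinoid receptor Cnr1 (-0.30) had 474 and 486 CPM at 120 min, against 612 and 601 CPM at 5 min and 590.1 and 565 CPM at 10 min. The calls of Htr1a, Chrm1 and Chrm3 were lost without replicate 2 of 120 min, that of Chrm3 also without replicate 1, and that of Htr1a against the 5 min libraries alone. Not called were Chrm2 (-0.01), Chrm4 (-0.04) and Drd2 (-0.03). Among those that rose was Hrh1, a histamine receptor, with 22.7 and 18.2 CPM at 120 min, against 5.18 and 5.14 CPM at 5 min and 5.54 and 4.96 CPM at 10 min (log2 fold change 1.78).

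Of 36 Wnt pathway genes 10 fell (27.8%, beside 14.9% of all genes) and 6 rose (16.7%, beside 19.1%; median -0.09), with 5 or 3 lower without replicate 1 or 2 of 120 min. The ligand Wnt7a had 35.2 and 34.9 CPM at 120 min, against 47.7 and 53.0 CPM at 5 min and 52.5 and 53.3 CPM at 10 min (log2 fold change -0.54). Apc2, a neuronal member of the beta-catenin destruction complex, had 130.4 and 123 CPM at 120 min, against 181 and 185 CPM at 5 min and 190.4 and 186 CPM at 10 min (log2 fold change -0.55, adjusted p = 1.4e-05). The receptors went both ways, with Fzd9 lower by 0.46 and Fzd6 higher by 0.61 on the log2 scale; the call of Fzd9 was lost without either 120 min library. The Notch pathway had 6 lower and 6 higher of 20 (beside 14.9% and 19.1% of all genes; median 0.03, and -0.02 with library totals), with 4 or 3 lower without replicate 1 or 2 of 120 min. The glycosyltransferase Lfng fell by 0.45 and the target Hey1 by 0.33, while the related target Hey2 rose by 1.04 on the log2 scale. The feedback inhibitor Nrarp rose by 2.36 to 12.6 and 9.97 CPM at 120 min, against 1.398 and 1.12 CPM at 5 min and 1.61 and 1.41 CPM at 10 min. At 60 min Nrarp had 70.65 and 71.69 CPM, above its level at 120 min. Receptor tyrosine kinases and their feedback brakes leaned upward, with 22 of 43 higher (51.2%, beside 19.1%) and 4 lower (9.3%, beside 14.9%; median 0.21), and with 2 or 1 lower without replicate 1 or 2 of 120 min. Met, the receptor of hepatocyte growth factor, rose by 1.29 and the phosphatase Dusp5 by 1.73, whereas Dusp8 had 29.6 and 30.2 CPM at 120 min, against 38.0 and 36.6 CPM at 5 min and 35.6 and 36.0 CPM at 10 min (log2 fold change -0.28).

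In 5 further lists 5.56% to 20.9% of the members fell, beside 14.9% of all genes. Higher members made up 24.6% of zinc-finger factors, 19.6% of solute carriers and 2.99% of cadherins, beside 19.1% of all genes. They made up 16.4% of axon guidance genes and 14.8% of collagens, laminins and integrins. Zinc-finger factors held 40 lower and 47 higher of 191 (median 0.03, and -0.02 with library totals), with Zfp532 at 50.3 and 50.1 CPM at 120 min, against 68.5 and 72.6 CPM at 5 min and 73.0 and 68.6 CPM at 10 min (log2 fold change -0.48). Solute carriers held 33 lower and 46 higher of 235 (median 0.02, and -0.04 with library totals). Slc2a10, a facilitative sugar transporter, fell by 0.65. The phosphate transporter Slc20a1 rose by 2.23 to 1217 and 1182 CPM at 120 min, against 249.6 and 248 CPM at 5 min and 258 and 264 CPM at 10 min. Cadherins held 8 lower and 2 higher of 67 (median -0.06), among them Pcdh20 (-0.47) and Cdh11 (-0.37). Axon guidance genes held 7 lower and 9 higher of 55 (median -0.05), and collagens, laminins and integrins 3 lower and 8 higher of 54 (median 0.06), with Itga5, an integrin subunit of the fibronectin receptor, higher by 2.77. Without replicate 1 or 2 of 120 min the lower members were 19 or 14 zinc-finger factors, 10 or 9 solute carriers, 3 or 2 cadherins, 2 or 3 guidance genes and 1 or 0 matrix genes, and 26 or 23 zinc-finger factors were higher. Guidance genes lower numbered 13 without replicate 2 of 10 min, 13 against the 5 min libraries alone and 17 with library totals, which also gave 16 lower cadherins and 5 lower matrix genes.

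None of 69 cytosolic ribosomal protein genes was called in limma in either direction (median 0.03, and -0.03 with library totals), but 9 were higher without replicate 2 of 5 min, 10 against the 10 min libraries alone, and 1 was lower with library totals. Rps13 came nearest, with 85.2 and 87.8 CPM at 120 min, against 81.1 and 80.8 CPM at 5 min and 71.7 and 76.4 CPM at 10 min (log2 fold change 0.16, adjusted p = 0.059). Of 70 subunits of oxidative phosphorylation 5 were lower (7.14%, under the 14.9% of all genes) and 0 higher in limma (beside 19.1% of all genes, median -0.11). Their number depended on the scaling and on single libraries: 44 were lower with library totals, 23 against the 5 min libraries alone and 15 without replicate 1 of 10 min. There were 2 lower without replicate 1 of 5 min, 3 without replicate 2 of 10 min, and 0 or 1 without replicate 1 or 2 of 120 min. Histone and DNA modifying enzymes held 9 lower (12.5%, beside 14.9%) and 21 higher (29.2%, beside 19.1%) of 72 (median 0.08), with the histone methyltransferase Dot1l higher by 1.28. Of these enzymes 2 or 0 were lower and 9 or 8 higher without replicate 1 or 2 of 120 min. Higher enzymes numbered 13 without replicate 1 of 5 min and 11 with library totals. Genes of messenger decay and translation control held 4 lower (12.9%, beside 14.9%) and 11 higher (35.5%, beside 19.1%) of 31 (median 0.09). Fewer were called in each direction without either 120 min library in turn. The RNase gene Zc3h12c had 52.6 and 53.9 CPM at 120 min, against 21.7 and 22.0 CPM at 5 min and 24.3 and 20.3 CPM at 10 min (log2 fold change 1.23), and Tnrc6b, a scaffold of microRNA silencing, fell by 0.25, a call lost without either 120 min library.

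**Figure D5:**
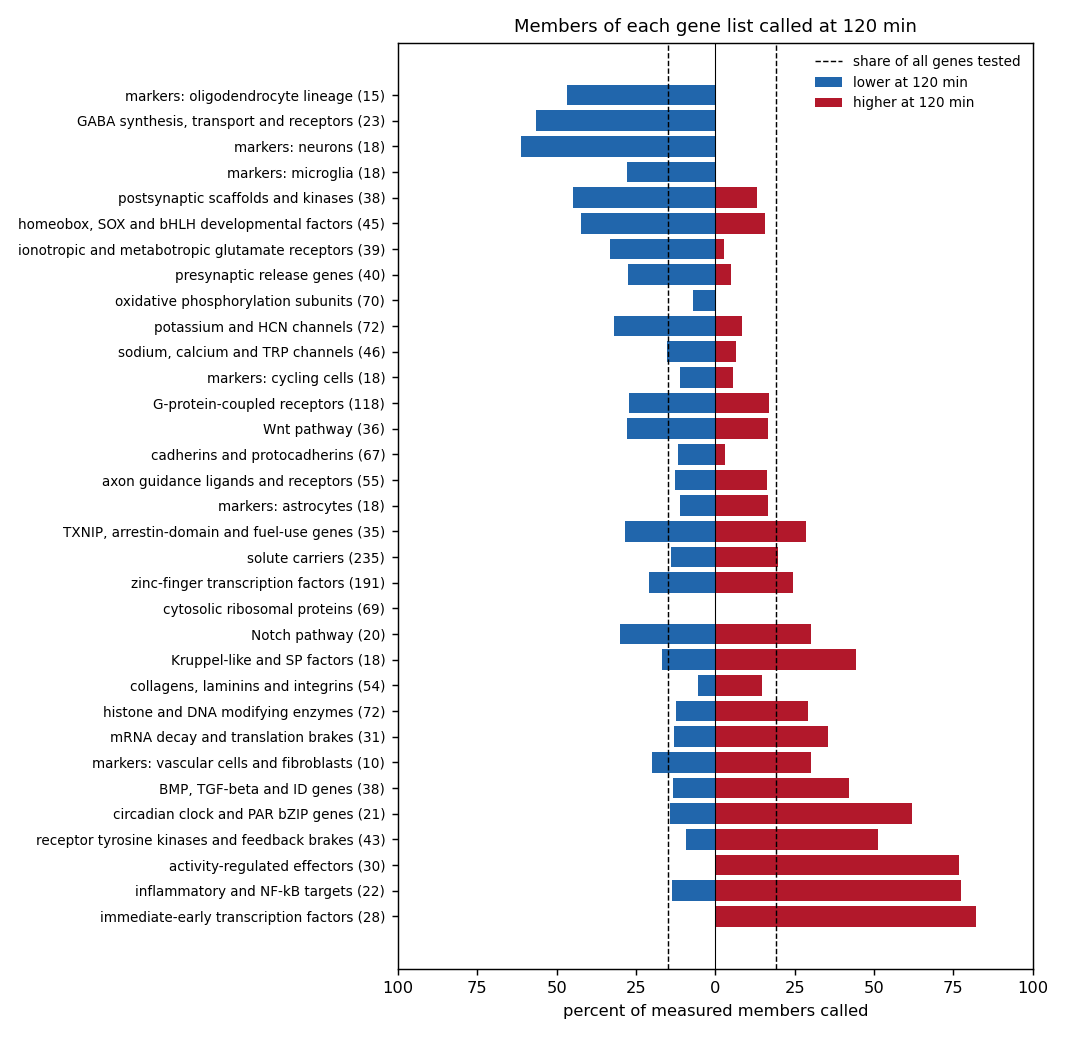
Percent of the measured members of 33 gene lists (number measured in brackets) that were called lower (blue, to the left) or higher (red, to the right) at 120 min, ordered by median fold change; dashed lines mark the shares among all genes, 14.9% and 19.1%. Neuron marker, GABA, oligodendrocyte and developmental lists extend past the left line, and immediate-early, inflammatory and feedback lists past the right one.

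The rises were led by secreted proteins and AP-1 factors. Tfpi2, a secreted protease inhibitor, had 89.9 and 87.3 CPM at 120 min, against 1.01 and 0.655 CPM at 5 min and 1.19 and 0.756 CPM at 10 min (log2 fold change 5.56, SE 0.12, adjusted p = 4.5e-09). Ptx3, a long pentraxin, rose by 4.33, Thbs1, a matrix protein that astrocytes release, by 4.24 and the cytokine Clcf1 by 4.15 on the log2 scale. Clcf1 was nearer to its early than to its late level at 60 min. It had 56.9 and 60.6 CPM at 120 min, against 2.17 and 1.66 CPM at 5 min and 3.04 and 2.79 CPM at 10 min, with 4.38 and 4.27 CPM at 60 min. The other 8 of the 12 largest rises were Maff, Fosl1, Angptl4, Atf3, Cxcl10, Fosb, Hbegf and Cxcl11, at 3.23 to 4.06. Of 28 immediate-early transcription factors 23 rose (82.1%, beside 19.1% of all genes) and 0 fell in limma (median 0.93). Of 30 activity-regulated effectors 23 rose (76.7%) and 0 fell (median 0.57). Plk2, a kinase of synaptic scaling, had 378 and 412 CPM at 120 min against 159 and 146 CPM at 5 min and 162 and 167 CPM at 10 min. Inflammatory and NF-kB targets rose in 17 of 22 cases (77.3%, beside 19.1% of all genes, median 0.88). They fell in 3 (13.6%, near the 14.9% of all genes), which were Nfkbiz, Nfkbia and Traf1 (the last not called without either 120 min library). The subunit gene Nfkb1 had 324 and 301 CPM at 120 min, against 58.1 and 54.2 CPM at 5 min and 58.8 and 60.6 CPM at 10 min.

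The promoter of Tfpi2, the largest rise, is shown for contrast with those of the falling genes. It lies at chr4:32941227-32941526 of GRCr8 (RefSeq), minus strand. The capitals mark TGAATCA, which begins 80 bases before the start. It has A at the open position of TGANTCA (N is any base), the pattern counted here as AP-1.
Tfpi2 promoter: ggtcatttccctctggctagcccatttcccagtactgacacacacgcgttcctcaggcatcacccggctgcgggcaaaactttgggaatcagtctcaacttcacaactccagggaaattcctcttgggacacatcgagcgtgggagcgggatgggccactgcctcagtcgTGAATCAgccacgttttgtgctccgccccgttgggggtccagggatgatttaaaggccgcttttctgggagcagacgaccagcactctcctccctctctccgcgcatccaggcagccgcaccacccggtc
The pattern TGANTCA, searched on both strands with any base at N, was counted as AP-1. Matches with C or G at N were not counted apart from those with A or T. The pooled pattern stood in 4.44% of the promoters of genes that fell at least 1.5-fold (2 of 45). The share was 11.4% among those that rose at least 1.5-fold (55 of 482) and 4.82% among all (454 of 9418). It was 4.41% among all genes that fell and 6.67% among all that rose. The cyclic AMP response element TGACGTCA stood in 2.22%, 4.15% and 3.27% of the same groups, the EGR motif GCGTGGGCG in 2.22%, 2.49% and 1.09%, and the D-box TTATGTAA in 0%, 0.83% and 0.403%. No motif contains another, and a match describes letters in the window, not a bound site.

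Length and level were also described. The median deposited length of the genes that fell was 2361 bases and that of genes that rose 2646 bases, against 2275 bases over all tested, and the median genomic span was 24008 bases in the genes that fell, against 22085 bases over all. Among the 55 that fell at least 1.5-fold, the median length was 2653 bases and the median span 14772 bases. The median early level was 42.3 CPM in the genes that fell and 35.4 CPM in those that rose, with 34.7 CPM over all genes, but 17.0 CPM in the 55 that fell at least 1.5-fold. These are descriptions and were not tested.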

How the data were processed

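RNA was sequenced from 10 cultures, of which 6 entered the comparison. The submitters' processing notes name build rn6 and the tools HTSeq, TopHat2 2.1.0, edgeR and bcl2fastq. No source used here gives the annotation or strand setting, so reads of overlapping antisense genes cannot be told apart. The authors deposited CPM values for 11615 genes and a gene length; 22 rows without a gene name were tested but not named, and 8 columns, which repeat the 2 mock libraries, were not used. The fewest reads behind a listed gene, worked back from the CPM, were 9 to 20 per library.

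The CPM were divided by TMM factors computed on the 8 cLTP libraries (trims of 30% on log ratios and 5% on mean levels) and taken as log2(CPM + 1). Limma 3.58.1 in R 4.3.3 compared 2 libraries of 120 min with 4 pooled early ones (variance trend, 4 residual degrees of freedom, two-sided, Benjamini-Hochberg over all 11615 genes, called at an adjusted p under 0.05). The fit was tested on simulated data. Named genes were the 30 largest falls and 12 largest rises of the called genes whose groups did not overlap and whose log2(CPM + 1) averaged 2 or more, plus up to 3 lower and 2 higher members of each of 33 lists by p. Other list members named, without values in each library, serve as examples, and those singled out are said to be so. A few genes that meet this rule are not reported here. The comparison and lists were chosen with earlier results of these data known, so list counts are descriptions. Figures were drawn with matplotlib 3.10.9. Alternatives changed the scaling, pseudocount, filter, threshold, variance prior, test, early group, replicate block and libraries.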

Additional observations from a re-analysis of the deposited data

Results flagged for a closer look

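In 8 of the named genes 1 of the 4 early libraries stood apart from the other 3 by Dixon's criterion, which chance meets in about 1 of 20 groups; 170 genes were examined. Replicate 2 of 10 min was the low one for Gpr146 (8.29 CPM, the others 9.34 to 9.52), Zfp238 (164 CPM, the others 174 to 176), Cdh10 (38.5 CPM, the others 43.4 to 43.6) and Grm5 (187.6 CPM, the others 207 to 209), and the high one for Hey1 (29.2 CPM, the others 26.8 to 27.1). Replicate 2 of 5 min was high for Lama1 (106 CPM, the others up to 96.3) and low for Gadd45b (12.1 CPM, the others 13.7 to 13.8). Replicate 1 of 5 min was low for Wnt7a (47.7 CPM, the others 52.5 to 53.3).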

How the results depend on the processing

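Of 170 named genes, 125 kept direction and call under all 19 alternatives, 45 changed their call under at least 1, and 0 reversed. The number of lower genes was 2932 with library totals and 725 at an adjusted p under 0.01. Leaving out 1 library in turn gave 479 to 1904 lower and 1314 to 2407 higher genes, lowest without a 120 min library; the lone sample is then assumed to vary like the early group. Genes at least 2-fold lower numbered 10 with a pseudocount of 0.1, 1 with a pseudocount of 5, 13 in limma-voom and 8 against the 10 min libraries alone. The other settings kept the counts within 1.5 times. Among them, the fit with 5 and 10 min as separate groups gave 2032 lower and 2505 higher genes. Samples of the same repeat number did not consistently deviate together (correlations 0.189, 0.0533 and -0.149 for 10 with 5, 120 with 5 and 120 with 10 min); with a replicate block 1504 genes were lower and 2104 higher, 5 at least 2-fold lower and 244 at least 2-fold higher. The edgeR count test was not run. The TMM factors and limma-voom used read numbers worked back from the deposited CPM. The 2 late libraries limit what small falls can show.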
